A study of Mus musculus with 20 samples.

Results

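Estrogen receptors, the estrogen-related receptors, the regulators that bind them and classical estrogen-responsive genes were followed in RNA-seq of mouse temporomandibular joint (TMJ) condylar heads, because tamoxifen, the drug used to induce the deletion of *Loxl2* in this model, is itself a ligand of estrogen receptors. The 10 genes were chosen by name from the 54532 genes of the count table, with earlier results of these data known. They were *Esr1*, *Esr2*, *Gper1*, *Esrra*, *Esrrb*, *Esrrg*, *Pgr*, *Greb1*, *Nrip1* and *Ncoa3*. The samples were condylar heads, the jaw side of the joint, with part of the subchondral bone. All animals carried *Loxl2* alleles flanked by loxP sites (Loxl2 fl/fl) and a Cre recombinase fused to a tamoxifen-binding estrogen receptor domain (CreERT2), expressed from the aggrecan (*Acan*) locus. At an age of 6 months the 8 Control animals received vehicle and the 12 animals labelled knockout received tamoxifen in corn oil by intraperitoneal injection at 75 mg/kg on 5 consecutive days, followed by a single injection each month, with collection after 4 months. The drug was given to no Control animal, so an effect of tamoxifen and an effect of the deletion cannot be told apart. The labels give neither sex nor batch for a library, although the methods of the study name both sexes in each group.

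Estrogen receptor alpha (*Esr1*) and beta (*Esr2*) are nuclear receptors that bind DNA when they bind estrogen, and tamoxifen competes for the same pocket, acting as an antagonist in some tissues and as an agonist in others, bone among them. *Gper1* encodes a membrane receptor of another class that binds estrogen and tamoxifen metabolites. The estrogen-related receptors (ERR) alpha, beta and gamma, encoded by *Esrra*, *Esrrb* and *Esrrg*, are orphan receptors that resemble estrogen receptors in sequence but do not bind estrogen; they control genes of mitochondrial energy metabolism together with the coactivators PGC-1alpha and PGC-1beta, and 4-hydroxytamoxifen, the active metabolite of tamoxifen, binds ERRbeta and ERRgamma as an inverse agonist. *Ncoa3* encodes a coactivator of the p160 family, *Nrip1* encodes the corepressor RIP140 and is itself induced by estrogen, and *Pgr* (the progesterone receptor) and *Greb1* are textbook targets of estrogen receptor alpha.

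Library totals ran from 11153820 to 27045668 counts, and the values below are CPM, counts scaled by TMM-adjusted library size. Libraries labelled knockout did not have less *Loxl2* RNA: Control libraries averaged 64.5 CPM ± 30.9 (SD, n = 8), whereas the other group averaged 101 CPM ± 26.9 (SD, n = 12), which is 0.64 on the log2 scale (SE 0.28, adjusted p = 0.101 by edgeR). The value counts reads over all exons and all cells of the sample, and whether exons outside the deleted stretch or cells without the deletion carry it was not tested, so it does not check the deletion itself. Because the targeted gene was not lower, the second group is called the libraries labelled knockout throughout. The tissue was mixed, since the summed level of 12 skeletal muscle markers was 37296 to 193017 CPM over the 20 libraries, whereas that of 13 chondrocyte markers was 147 to 7282 CPM, and no marker of any of the 13 lists was at 0 in every library. Summed markers of osteoclasts, of osteoblasts and osteocytes, of macrophages and of mast cells were higher in the libraries labelled knockout and those of skeletal muscle were lower (5 of 13 lists past an adjusted p of 0.05, exact permutation test, two-sided). Without Control replicate 8 the muscle (adjusted p = 0.0822) and mast cell (adjusted p = 0.0522) lists were no longer past it, in the same exact permutation test, and 3 lists were. In bulk tissue, fewer cells of a type and less RNA per cell cannot be told apart. The summed level of 4 Y chromosome genes had a median of 0.298 CPM in Control (0 to 194 CPM). In the libraries labelled knockout the median was 50.7 CPM (0 to 143 CPM). The group difference on the log2 scale was 0.67 (exact permutation p = 0.726, unadjusted), and the balance of sexes was not tested beyond these values. One Control library, replicate 8, had the highest sum of the muscle markers (193017 CPM) and the lowest of the chondrocyte markers (147 CPM). Values without it are given for those of the 8 tested genes in which it was the highest or lowest Control library.

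Of the 10 genes, 8 passed the filter on low counts and were tested with edgeR among 15984 genes, and *Esr2* and *Pgr* did not pass. Among all tested genes, 23.0% were past an adjusted p of 0.05, with 12.0% higher and 11% lower in the libraries labelled knockout. Among the 8 tested genes, 1 was past the threshold, *Esrrb*, which was lower, and 7 were not. This share of 12.5% rests on 8 genes and stands beside the 23.0% of all tested genes. No gene of the 8 had groups that did not overlap in CPM, compared with 0.300% of all tested genes. The 8 log2 fold changes had a median of -0.23, beside -0.02 for all tested genes, and 3 of the 8, *Esrrb*, *Gper1* and *Esrrg*, had an unadjusted p under 0.05, beside 37.0% of all tested genes.

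**Figure D1:**
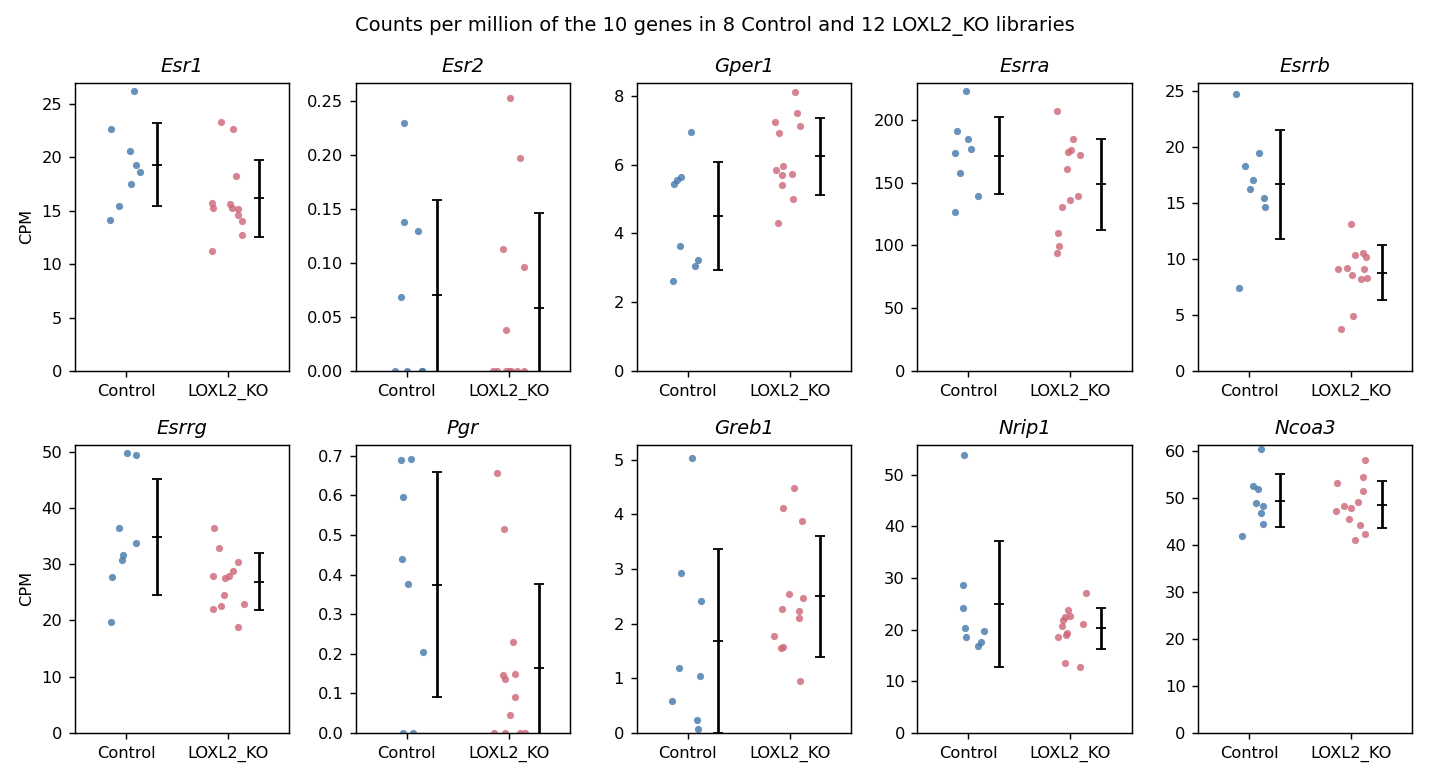
CPM of each gene (y axis, a separate scale for each panel) in the 8 Control and 12 LOXL2_KO libraries; each point is a library, and the dash with its bar is the mean ± SD, cut at 0. *Esrrb* is the gene with the clearest shift, from a mean of 16.7 to 8.78 CPM, and its groups overlap only through Control replicate 8 at 7.43 CPM.

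The promoters were searched for the sequences these receptors bind, in windows from 250 bases before to 50 bases after each start, taken from RefSeq (GRCm38.p6). The table held 9 of the 10 genes with 16 starts, and *Ncoa3* was not matched. The palindromic estrogen response element, without mismatch, was in 23 of 32851 windows (0.0700%) and the ERR element TCAAGGTCA in 139 (0.423%), on either strand, and neither was in any of the 16 windows. The core motif AGGTCA, which the ERR element contains and which was added after the first search had been seen, was in 16.3% of all windows and in 1 of the 16. That window belongs to the start of *Greb1*, a gene known for its response to estrogen, and its 250 bases before the start (chr12:16800887-16801136, minus strand) are shown with the core motif in capitals, on the reverse strand, 88 to 83 bases before the start. The 250 bases before both starts of *Esrrb* (chr12:86360867-86361116 and chr12:86421394-86421643, plus strand) are shown because it is the gene that differed, and hold none of the 3 motifs. A match is a description of letters and not of binding, and no match says only that these letters are not in the window.
Greb1 start: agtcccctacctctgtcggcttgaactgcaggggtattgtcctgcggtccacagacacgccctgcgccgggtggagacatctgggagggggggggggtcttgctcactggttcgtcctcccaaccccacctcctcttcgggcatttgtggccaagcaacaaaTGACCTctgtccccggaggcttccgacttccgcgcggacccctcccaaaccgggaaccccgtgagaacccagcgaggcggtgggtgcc
Esrrb first start: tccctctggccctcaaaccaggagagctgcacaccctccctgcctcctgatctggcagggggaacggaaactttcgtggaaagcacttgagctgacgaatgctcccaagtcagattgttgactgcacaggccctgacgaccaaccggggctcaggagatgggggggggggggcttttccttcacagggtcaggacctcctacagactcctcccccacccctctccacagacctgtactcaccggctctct
Esrrb second start: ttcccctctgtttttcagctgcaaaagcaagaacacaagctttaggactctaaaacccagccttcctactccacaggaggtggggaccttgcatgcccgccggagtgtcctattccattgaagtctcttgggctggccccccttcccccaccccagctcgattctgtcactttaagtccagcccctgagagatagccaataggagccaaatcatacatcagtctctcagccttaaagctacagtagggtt

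*Esr1* (ENSMUSG00000019768, chr10:4611593-5005614, plus strand, GRCm38/mm10) was measured well in every library, with 156 to 726 counts. It stood at a lowest, median and highest value of 14.1, 19 and 26.3 CPM in Control and of 11.2, 15.3 and 23.3 CPM in the libraries labelled knockout. The groups overlapped over most of their range, and 10 of 12 libraries labelled knockout lay below the Control median. The log2 fold change of -0.26 (SE 0.13, 95% interval -0.54 to 0.02) did not pass the test (adjusted p = 0.171). The Control library with the highest *Esr1* was replicate 8, and without it the log2 fold change was -0.17 (adjusted p = 0.406).

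Since every animal carries a transgene with an estrogen receptor domain that is transcribed from the *Acan* locus, reads of the transgene could in principle be counted as *Esr1*, and the relation of the genes was therefore measured. *Acan* (aggrecan, the main proteoglycan of cartilage) ranged from 2.22 to 276 CPM in Control and from 5.18 to 244 CPM in the libraries labelled knockout, a far wider range than that of *Esr1*. Across the 8 Control libraries the correlation of log2 *Esr1* with log2 *Acan* was negative and did not pass the test (Pearson r = -0.58, exact permutation p = 0.127, adjusted over 2 relations 0.254; Spearman rho = -0.62, p = 0.115, adjusted 0.230). Without the 2 libraries farthest from the *Acan* median r was -0.62, whereas with library totals alone as scaling it was -0.08. Across the 12 libraries labelled knockout r was 0.27 (permutation p = 0.395, adjusted 0.395; rho = 0.20, p = 0.542, adjusted 0.542), and 0.33 without the 2 farthest libraries. The number of *Esr1* counts that come from the transgene was not tested.

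*Esr2* (chr12:76120419-76177259, minus strand) was close to undetectable. It had 8 counts over all 8 Control libraries and 15 counts over all 12 libraries labelled knockout, with a maximum of 3 and 5 counts in a library. It was at 0 in 4 of 8 and in 7 of 12 libraries. Among these, a count of 0 allows a level of up to 0.113 CPM (3 counts) in the largest by TMM-adjusted size, Control replicate 1. In the smallest, knockout-labelled replicate 10, it allows up to 0.246 CPM. These limits cover counting error only. A difference was not detectable at this depth (log2 fold change -0.17, SE 1.03, adjusted p = 0.937 in the fit with no filter).

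*Gper1* (chr5:139423151-139427800, plus strand) was the estrogen-binding receptor with a positive log2 fold change. Control libraries stood at 2.60, 4.53 and 6.95 CPM (lowest, median, highest) and those labelled knockout at 4.30, 5.91 and 8.11 CPM. The ranges overlapped, but 11 of 12 libraries labelled knockout were above the Control median and 4 were above the highest Control library. The log2 fold change was 0.47 (SE 0.18, 95% interval 0.09 to 0.84), which missed the threshold after adjustment over all genes (adjusted p = 0.0643). The call depended on the test, since the DESeq2 Wald test gave an adjusted p of 0.0496, and on single libraries, since *Gper1* was also past the threshold without Control replicate 5 or without knockout-labelled replicate 12. Without Control replicate 8, the lowest Control library, it was 0.39 (adjusted p = 0.128). With the summed level of the osteoblast and osteocyte markers as a covariate the value was -0.07, and with that of the osteoclast markers it was 0.01.

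*Esrrb* (ENSMUSG00000021255, chr12:86361117-86521628, plus strand), with the promoters printed above, was the gene whose level differed between the groups. The 8 Control libraries, replicates 1 to 8, stood at 15.5, 16.2, 14.7, 24.7, 17, 18.3, 19.5 and 7.43 CPM. The libraries labelled knockout had a lowest value of 3.73, a median of 9.08 and a highest of 13.1 CPM. All 12 lay below the Control median and 7 of the 8 Control libraries lay above the highest of them, so that the overlap came from Control replicate 8 alone. The Control mean of 16.7 CPM ± 4.87 (SD, n = 8) compared with 8.78 CPM ± 2.48 (SD, n = 12), a fold of 0.528 and -0.92 on the log2 scale (SE 0.20, 95% interval -1.33 to -0.51, adjusted p = 0.00337). An exact permutation test over the 20 libraries on log2 CPM gave p = 0.000635, two-sided and unadjusted.

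The fall of *Esrrb* was measured in a tissue whose cell type markers differed between the groups in parallel. Of the 12 skeletal muscle markers, 5 were past the threshold and all 5 were lower in the libraries labelled knockout. Their sum ran from 52908 to 193017 CPM in Control and from 37296 to 97330 CPM in the libraries labelled knockout. With that sum as a covariate the log2 fold change of *Esrrb* was -0.82 (adjusted p = 0.0449). The list has no slow-fibre gene, so this fit does not cover muscle of every fibre type. Control replicate 8, with the highest muscle sum, had the lowest *Esrrb* of its group, and without it the log2 fold change was -1.02 (adjusted p = 0.00193). All 12 osteoclast markers and 6 of 12 osteoblast and osteocyte markers were called higher; with the sum of either list as a covariate the value was -0.83 (SE 0.31, adjusted p = 0.568) or -0.89 (SE 0.30, adjusted p = 0.310), in fits in which 0 of all 15984 genes were past the threshold (1290 and 1704 had an unadjusted p under 0.05). The SE of *Esrrb* in these fits was above the 0.20 of the fit without a covariate, and the list sums themselves differ between the groups. The part of cell makeup in the fall of *Esrrb* was not tested beyond these values.

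**Figure D2:**
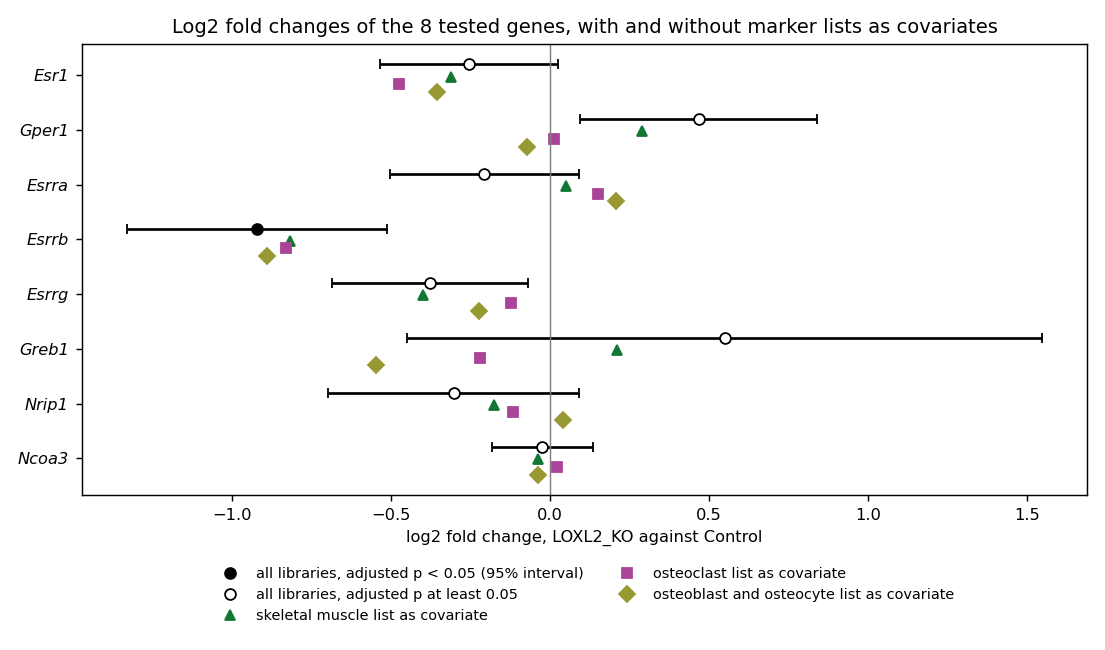
Log2 fold change (x axis, libraries labelled knockout against Control) of the 8 tested genes; circles with bars are the values with their 95% intervals, filled where the adjusted p is under 0.05, and the other symbols are the values with a marker list as covariate. *Esrrb* lies between -0.82 and -0.92 under all of them, and *Gper1*, *Esrra*, *Greb1*, *Nrip1* and *Ncoa3* cross 0 with at least 1 list. The list sums differ between the groups, and the part of cell makeup was not tested.

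*Esrrg* (chr1:187608791-188214885, plus strand), the ERR gene typical of oxidative tissue, had a negative log2 fold change like *Esrrb*. It stood at 19.7, 32.7 and 49.7 CPM (lowest, median, highest) in Control and at 18.8, 27.8 and 36.5 CPM in the libraries labelled knockout. The groups overlapped, with 10 of 12 libraries labelled knockout below the Control median. Its log2 fold change of -0.38 (SE 0.15, 95% interval -0.68 to -0.07) was not past the threshold (adjusted p = 0.0694). It was past it without Control replicate 8 (-0.45, adjusted p = 0.0262), which was again the lowest Control library, and also without knockout-labelled replicate 5.

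*Esrra* (chr19:6910977-6921813, minus strand) was the most abundant of the receptors. Control libraries stood at 126, 175 and 223 CPM and those labelled knockout at 94.1, 150 and 207 CPM (lowest, median, highest). The groups overlapped broadly, and the log2 fold change of -0.21 (SE 0.14, 95% interval -0.50 to 0.09) did not pass the test (adjusted p = 0.307). Its sign turned with the muscle (0.05), osteoclast (0.15) or osteoblast and osteocyte (0.21) list as covariate. A stretch of 73 exonic bases is shared with *Trmt112* on the opposite strand, and since the use of strand in counting is not given in the sources used here, counts there could belong to either gene.

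*Nrip1* (chr16:76287400-76373827, minus strand), the corepressor gene, was at 16.9, 20.0 and 53.8 CPM in Control and at 12.8, 20.9 and 27.0 CPM in the libraries labelled knockout (lowest, median, highest). The medians were close, and the Control mean of 25 CPM ± 12.3 (SD, n = 8) was raised by replicate 8 alone. This gave -0.30 on the log2 scale (SE 0.19, adjusted p = 0.252), and without that library it was -0.03 (adjusted p = 0.889).

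*Ncoa3* (chr2:165992636-166073242, plus strand), the coactivator gene, was the steadiest of the 10. It stood at 41.9, 48.6 and 60.4 CPM in Control and at 41.1, 48.1 and 58.0 CPM in the libraries labelled knockout. Highest and lowest library differed by 1.47-fold, compared with 6.61-fold for *Esrrb*. Its log2 fold change of -0.02 (SE 0.08, adjusted p = 0.848) had a 95% interval of -0.18 to 0.13. With library totals alone as scaling, which moved the median of all genes to 0.12, the value was 0.12. *Ncoa3* shares 154 exonic bases with *Sulf2* on the opposite strand.

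*Pgr* and *Greb1*, the chosen targets of estrogen receptor alpha, were low in this tissue. *Pgr* (chr9:8899833-8968611, plus strand) had 50 counts over the 8 Control libraries and 41 over the 12 libraries labelled knockout, and was at 0 in 2 of 8 and 4 of 12. Its highest library was at 0.691 CPM in Control and at 0.655 CPM in the other group. The log2 fold change in the fit with no filter was -1.14 (SE 0.80, 95% interval -2.79 to 0.51, adjusted p = 0.374), so that neither a fall nor a rise was detectable at this depth.

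*Greb1* (ENSMUSG00000036523, chr12:16670615-16800886, minus strand), whose promoter sequence is given above, varied the most of the 8 tested genes. Control libraries stood at 0.0766, 1.11 and 5.03 CPM (lowest, median, highest; 1 to 134 counts) and those labelled knockout at 0.951, 2.26 and 4.49 CPM (13 to 102 counts). Every library labelled knockout lay within the Control range, and 11 of 12 were above the Control median. The lowest of all libraries was Control replicate 8 and the highest was Control replicate 1, 65.7-fold apart. On the log2 scale the change of 0.55 (SE 0.48, 95% interval -0.45 to 1.55) did not pass the test (adjusted p = 0.428), while the exact permutation test on log2 CPM gave an unadjusted p of 0.0431. Without Control replicate 1 the value was 1.04 (adjusted p = 0.107), without Control replicate 8 it was 0.38 (adjusted p = 0.585), and with the summed level of Y chromosome genes as a covariate, a stand-in for the sex that the labels leave out, it was 1.05 (adjusted p = 0.0531). It was -0.22 with the osteoclast list and -0.55 with the osteoblast and osteocyte list as a covariate. *Greb1* shares 736 exonic bases with an antisense gene, *Gm48140*, which cannot be told apart from it without strand.

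To compare levels between genes, counts were also divided by the length of merged exons (RPKM, here CPM per kilobase of exon). *Esrra* led with 39.1 RPKM ± 6.95 in Control (SD, n = 8) and 33.9 RPKM ± 8.20 in the libraries labelled knockout (SD, n = 12), above the next gene, *Ncoa3*, in every library and without overlap. In Control the order continued with *Ncoa3* (6.26 RPKM), *Esrrg* (5.62), *Esrrb* (2.76), *Nrip1* (2.18), *Gper1* (1.78) and *Esr1* (1.41), in which each neighbour overlapped the next over the 8 libraries. *Esr1* lay above *Greb1* (0.176 RPKM) in 8 of 8 libraries without overlap, and *Pgr* (0.0438) and *Esr2* (0.0210) were last. In the libraries labelled knockout *Gper1* (2.46 RPKM) stood above *Nrip1* (1.77), *Esrrb* (1.45) and *Esr1* (1.18), so that *Esrrb* took the fourth place in Control and the sixth in the other group. This change of rank is a description, and neighbours in that stretch overlapped in both groups.

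**Figure D3:**
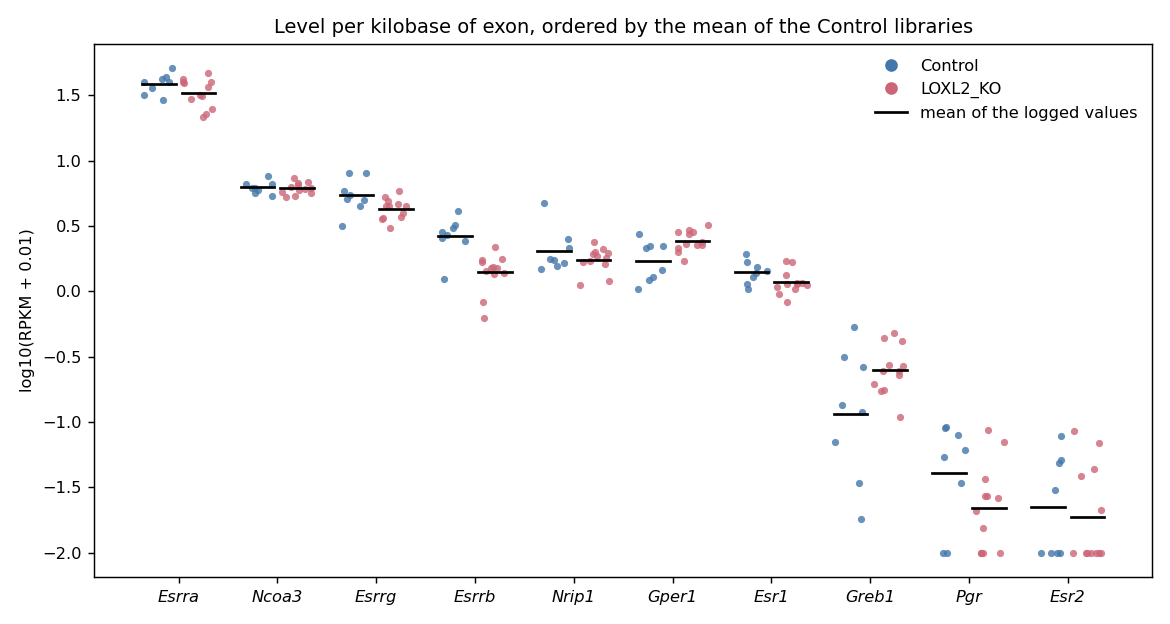
Level per kilobase of exon on a log10 scale (y axis, log10 of RPKM + 0.01) of the 10 genes, ordered by the Control mean; each point is a library and the line is the mean of the logged values. *Esrra* stands above all others in every library, and *Pgr* and *Esr2* lie at the bottom.

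The genes around the receptors were read from 9 lists, chosen with earlier results of these data known. The lists held 157 genes, of which 155 were in the table and 132 tested. Of these, 42 (31.8%) were called, 20 higher and 22 lower in the libraries labelled knockout, beside 23.0% of all tested genes. The count fell to 8 with the muscle list as a covariate and to 0 with the osteoclast or the osteoblast and osteocyte list, fits that called 617, 0 and 0 of all genes. At an unadjusted p under 0.05 the lists held 58 genes of 132 in the reported fit and 35, 11 and 16 in these, beside 37.0%, 22.3%, 8.07% and 10.7% of all tested genes.

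The largest share of calls was among coactivators and targets of the ERR receptors. There 14 of 23 (60.9%) were lower and 0 higher, beside 11% and 12.0% of all tested genes. The median log2 fold change was -0.46. At an unadjusted p under 0.05, 19 of 23 were lower and 0 higher, beside 37.0% of all tested genes in either direction. *Ppargc1a*, which encodes PGC-1alpha, averaged 43.4 CPM ± 17 in Control (SD, n = 8) and 27.5 CPM ± 9.41 in the libraries labelled knockout (SD, n = 12), and fell by 0.66 on the log2 scale (SE 0.22, adjusted p = 0.0327; 11 of 12 below the Control median). *Ppargc1b* (PGC-1beta) fell from 16.3 to 12.2 CPM (log2 fold change -0.42, SE 0.15, adjusted p = 0.0473). These calls were lost in 8 of 20 omissions of a library for *Ppargc1a* and in 15 of 20 for *Ppargc1b*. *Ucp3*, a mitochondrial carrier of muscle, fell by 1.19 on the log2 scale (SE 0.25, adjusted p = 0.00312) and *Pdk4*, a kinase that closes pyruvate dehydrogenase, fell by 1.04 (SE 0.25, adjusted p = 0.00613), each with 12 of 12 libraries labelled knockout below the Control median. Other genes called, named after their values were seen, were *Fabp3*, *Cpt1b*, *Acadm*, *Lpl*, *Sdha*, *Vegfa*, *Idh3a*, *Tfam* and *Sdhb*. They serve fatty acid use, the citric acid cycle, mitochondrial DNA upkeep and, for *Vegfa*, vessel growth. Among them the call was lost in 14 of 20 omissions of a library for *Sdhb*, in 11 for *Cpt1b* and in 3 for *Idh3a*. The rest of them kept it in all 20. Muscle expresses many of these genes, and its markers, which include no slow-fibre gene, were lower as well. Their part was not tested beyond the fits with covariates. The count was 3 with the muscle list as a covariate, with a list median of -0.26, and 0 with the osteoclast list (median -0.10) or the osteoblast and osteocyte list (median -0.08). It was 8 without Control replicate 6 or without Control replicate 8, and 9 with library totals alone as scaling.

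Among target genes of estrogen receptors, 8 of 23 tested (34.8%) were higher and 0 lower, beside 12.0% and 11% of all tested genes. The median log2 fold change was 0.35. At an unadjusted p under 0.05, 11 of 23 were higher and 0 lower, beside 37.0% of all tested genes in either direction. *Car12*, a carbonic anhydrase, averaged 1.07 CPM ± 0.716 in Control (SD, n = 8) and 3.45 CPM ± 1.30 in the libraries labelled knockout (SD, n = 12), and rose by 1.66 on the log2 scale (SE 0.38, adjusted p = 0.00489). *Igf1*, a growth factor of bone and muscle, rose from 23 to 56.5 CPM (log2 fold change 1.29, SE 0.34, adjusted p = 0.0104). The other 6 called, named after their values were seen, were *Fos*, *Rab31*, *Myc*, *Rerg*, *Xbp1* and *Rara*, with log2 fold changes of 0.32 to 1.28. The highest of these is *Fos*, where knockout-labelled replicate 4 stood at 116 CPM and the next library at 50.3, and which was at 0.85 without it (adjusted p = 0.0195); *Rara* lost its call in 14 of 20 omissions of a library. *Tff1*, the gene most often used to read estrogen receptor activity in breast cancer cells, had 0 counts in all 20 libraries. The marker sums of osteoclasts, of osteoblasts and osteocytes and of macrophages were higher by 2.36, 2.21 and 1.52 on the log2 scale in the same libraries, and their part was not tested beyond the fits with covariates. With the osteoclast list as covariate 0 of 23 were called and the list median was 0.01, with the osteoblast and osteocyte list 0 and 0.18, and with the muscle list 4 and 0.25.

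Sterol synthesis was listed because tamoxifen binds the antiestrogen binding site, a complex formed by the sterol enzymes EBP and DHCR7. Of 20 tested genes, 7 were higher and 1 was lower (40.0% called, beside 23.0% of all tested genes), with a median log2 fold change of 0.27. At an unadjusted p under 0.05, 8 of 20 were higher and 1 lower, beside 37.0% of all tested genes in either direction. *Sqle*, which makes squalene epoxide, rose by a log2 fold change of 1.12 (SE 0.38, adjusted p = 0.0398) and *Insig1*, a sterol sensor of the endoplasmic reticulum, by 0.90 (SE 0.24, adjusted p = 0.0112). In both, knockout-labelled replicate 4 stood far above the rest, at 68.8 CPM for *Sqle*, where the next was at 24.4, and at 85.5 CPM for *Insig1*, where the next was at 36.0. Without it *Sqle* was at 0.65 on the log2 scale and past the threshold no longer (adjusted p = 0.0516), and *Insig1* was at 0.66 (adjusted p = 0.00614). *Fdft1* (squalene synthase) fell by 0.48 (SE 0.13, adjusted p = 0.0153). *Ebp* itself, named after its values were seen, rose from 13 to 19.6 CPM (log2 fold change 0.59, SE 0.11, adjusted p = 0.00196), and all 12 libraries labelled knockout exceeded the Control median. The number higher was 1 with the muscle list as a covariate and 0 with either bone list.

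**Figure D4:**
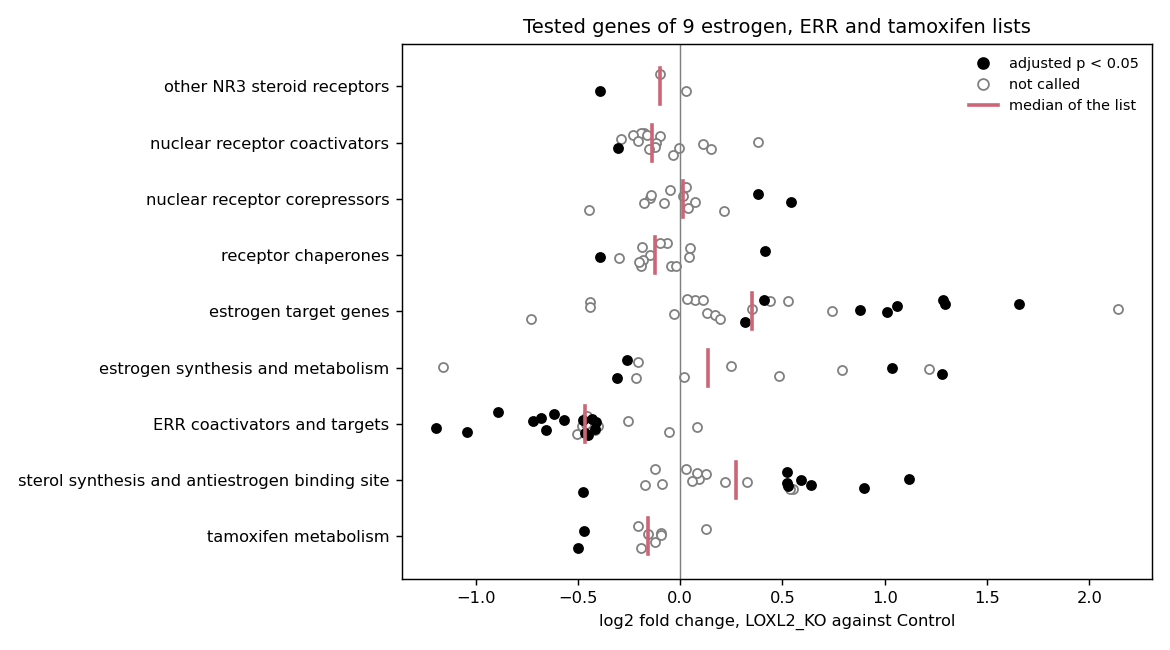
Log2 fold change (x axis, libraries labelled knockout against Control) of every tested gene in the 9 lists around the receptors (y axis); filled points have an adjusted p under 0.05, open points do not, and the thick line is the list median. The ERR list lies mostly left of 0 (14 of 23 lower) and the estrogen target list mostly right of it (8 of 23 higher).

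The machinery the receptors work with was read from lists of coactivators, corepressors and chaperones. Of 16 nuclear receptor coactivators 1 was lower, *Kat2b*, a histone acetyltransferase (log2 fold change -0.30, SE 0.10, adjusted p = 0.0277). Of 13 corepressors 2 were higher, *Nr2f1* (COUP-TF1; 0.54, adjusted p = 0.0291) and *Tbl1x*, a subunit of the NCoR complex (0.38, adjusted p = 0.0290). Of 14 chaperones that hold steroid receptors in a ligand-binding state, *Dnajb1* was higher (0.41, adjusted p = 0.0334) and *Ppid* was lower (-0.39, adjusted p = 0.00390). These shares, 6.25%, 15.4% and 14.3%, rest on few genes each and stood beside 23.0% of all genes. At an unadjusted p under 0.05 the counts were 4 of 16 coactivators, 2 of 13 corepressors and 5 of 14 chaperones, beside 37.0% of all tested genes. Of the 3 other steroid receptors, the mineralocorticoid receptor gene *Nr3c2* was lower (-0.39, adjusted p = 0.0321), 1 of 3 beside the 23.0% called among all genes. When a library was left out, the call was lost in 6 of 20 cases for *Nr3c2* and for *Dnajb1*, in 3 of 20 for *Kat2b*, *Nr2f1* and *Tbl1x* and in 0 of 20 for *Ppid*.

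RNA of the key enzyme of local estrogen synthesis was close to undetectable, and synthesis itself was not measured. *Cyp19a1*, the aromatase that makes estrogen from androgens, had 5 counts over the Control libraries and 4 over those labelled knockout. Among 12 tested genes of estrogen synthesis and metabolism, 2 were higher and 2 lower (33.3% called, beside 23.0% of all tested genes). At an unadjusted p under 0.05, 3 of 12 were higher and 2 lower, beside 37.0% of all tested genes in either direction. *Hsd17b12*, which also elongates fatty acids, was higher (1.04, SE 0.34, adjusted p = 0.0301), with knockout-labelled replicate 4 at 121 CPM and the next at 30.2 (0.60 without it, adjusted p = 0.0175), as was *Hsd17b1* (1.28, adjusted p = 0.0252), which reduces estrone to estradiol, was named after its values were seen and had means of 0.430 and 1.05 CPM. *Hsd17b10* (-0.31, adjusted p = 0.0469) and *Hsd17b4* (-0.26, adjusted p = 0.0398), both of which also serve fatty acid breakdown, were lower, calls that were lost in 15 and 14 of 20 omissions of a library. Of 9 tested genes of tamoxifen metabolism and export, 2 were lower (22.2%, close to the 23.0% called among all genes), the monooxygenase gene *Fmo5* (-0.50, SE 0.10, adjusted p = 0.00261) and the drug exporter gene *Abcb1b* (-0.47, SE 0.14, adjusted p = 0.0187). *Cyp3a11*, the main hepatic enzyme of tamoxifen metabolism in this list, did not pass the filter.

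**Figure D5:**
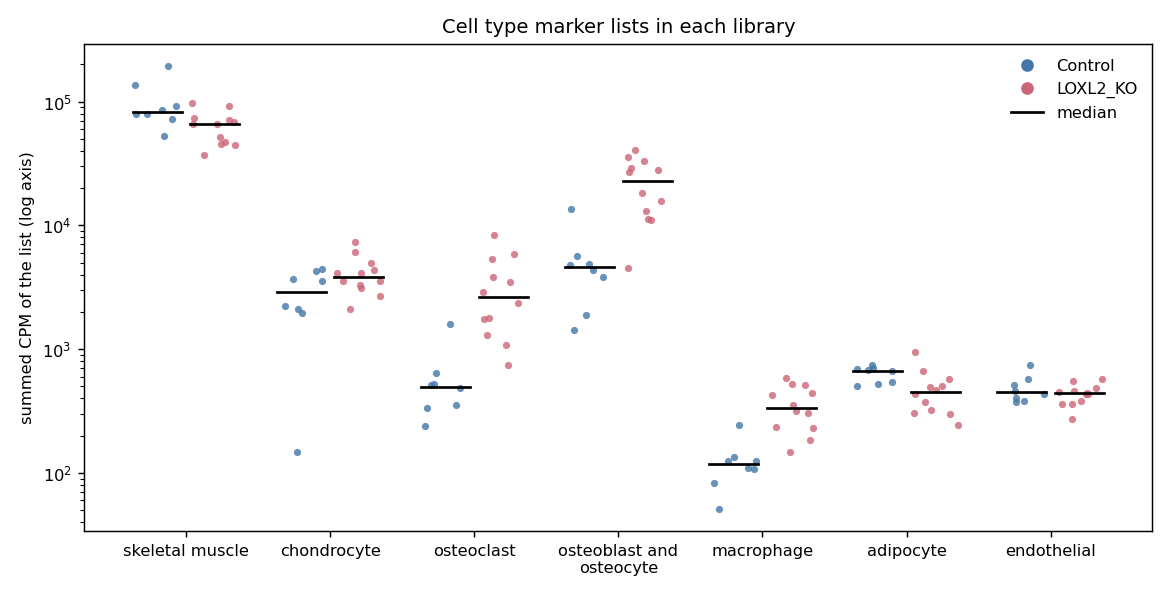
Summed CPM of the cell type marker lists on a log scale in the 8 Control and 12 LOXL2_KO libraries; each point is a library. The osteoclast sum ran from 238 to 1595 CPM in Control and from 742 to 8354 CPM in the libraries labelled knockout, and the muscle sum was lower in the second group.

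How the genes moved together within groups was described by the correlation of their deviations from the group means over the 20 libraries. Among the 8 tested genes the highest value was between *Esr1* and *Nrip1* (r = 0.60), followed by *Esrrb* and *Esrrg* (0.52), and the lowest was between *Gper1* and *Nrip1* (-0.55). Without Control replicate 8 these were 0.50, 0.30 and -0.35, and the highest and lowest were then *Esrra* with *Esrrb* (0.58) and *Gper1* with *Esrrg* (-0.58). The points share libraries and their depth and cell makeup. Of 10756 protein-coding genes with a mean of at least 5 CPM, *Esrrb* was most like *Fndc5* (0.90), *Ldhb* (0.86) and *Coro6* (0.84), and *Esrra* was most like *Ptges2* (0.94) and *Ndufs7* (0.93). *Esr1* was most like *Ppfibp2* (0.76), *Plxna4* (0.74) and *Arel1* (0.73), and *Esrrg* was most like *Camta1* (0.79), *Ablim1* (0.78) and *Fam13a* (0.76). *Gper1* was most like *Tmc6* (0.86), *Plod3* (0.84) and *App* (0.83), *Nrip1* like *Chd6* (0.87), *Epg5* (0.86) and *Jarid2* (0.86), and *Ncoa3* like *AK157302* (0.69), *Abca3* (0.68) and *Syne2* (0.68). *Greb1* was most like *Cnksr2* (0.88), the myosin gene *Myh2* (0.82), which is one of the muscle markers, and *P2ry14* (0.82).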

How the data were processed

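RNA of 20 condylar heads was sequenced as paired-end reads on an Illumina NovaSeq. The authors trimmed the reads with a company script, mapped them to mm10 and deposited raw counts per Ensembl gene made with featureCounts 1.5.0-p3; the aligner, annotation release, use of strand and treatment of multimapping reads are not given in the sources used here. Group and replicate number come from the sample titles. Each library is a separate sample, and nothing in the labels says more of its origin, so p-values measure the spread between these samples. Of 54532 genes, 54495 were matched by identifier to GENCODE M21 for symbols, coordinates and exon lengths.

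Counts were tested with edgeR 4.0.16 in R 4.3.3 (filterByExpr, TMM, two-sided quasi-likelihood F-test, Benjamini-Hochberg over 15984 genes, threshold 0.05); SEs were derived from the F statistic, and log2 CPM has a prior count of 2. The study used DESeq2, run here (1.42.0) as an alternative. The genes and lists were chosen with earlier results of these data known. Named genes are the 10 chosen, *Loxl2*, *Acan*, *Ppargc1a*, *Ppargc1b*, *Cyp19a1*, *Tff1*, per list at most 2 higher and 2 lower called genes of the largest log2 fold change whose mean reached 1 CPM, and the 3 genes most correlated with each tested gene, and others are marked as named after their values were seen; items withheld for evaluation are not reported here. Alternatives were other scalings, filters and dispersions, the replicate number as a block, a Y chromosome, muscle, osteoclast or osteoblast and osteocyte list as covariate, and leaving out each library. Library totals were 11153820 to 27045668 counts, and the smallest chi-square per degree of freedom among 190 library pairs was 32.9, so no pair held the same counts. On simulated counts for this comparison with 200 of 15984 genes changed by 1.5 (log2), 77.5% were recovered and 4.32% of calls were false. Genes were drawn independently of each other there, so these rates do not cover smaller changes or shifts shared by many genes.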

Additional observations from a re-analysis of the deposited data

Results flagged for a closer look

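A single library, Control replicate 8, stood apart from the other 7 Control libraries in 2 of the 10 genes, by the gap to its nearest neighbour on the log2 scale relative to the group's range (Dixon's critical value 0.526 for 8 samples, which chance passes in about 1 in 20 groups). *Esrrb* was at 7.43 CPM there, the lowest of the group, and *Nrip1* was at 53.8 CPM, the highest. Without this library the log2 fold change of *Esrrb* was -1.02 in place of -0.92 and that of *Nrip1* was -0.03 in place of -0.30. The same library had 193017 CPM of summed muscle markers and 147 CPM of summed chondrocyte markers. The part of this makeup in both values was not tested.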

How the results depend on the processing

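*Esrrb* kept its direction under all 14 alternative settings and all 20 omissions of a library (-1.02 to -0.81 when a library was left out) and its call in 12 of the 14 and in all 20. Among the 10 genes, 1 was called in the reported fit, 2 with the DESeq2 Wald test, 0 with the osteoclast and 0 with the osteoblast and osteocyte list as covariate, and 1 to 2 when a library was left out. Of the genes in the lists, 42 were called as reported, 26 with no filter, 8 with the muscle list, 0 with either bone list and 24 (without Control replicate 8) to 50 (without knockout-labelled replicate 12) when a library was left out. The osteoblast and osteocyte list turned *Loxl2* to -0.048, *Gper1* to -0.072, *Esrra* to 0.21, *Greb1* to -0.55, *Nrip1* to 0.0389 and *Hsd17b10* to 0.037. The osteoclast list turned *Esrra* to 0.15, *Greb1* to -0.22, *Ncoa3* to 0.0214, *Abcb1b* to 0.0464 and *Hsd17b10* to 0.0318, and the muscle list turned *Esrra* to 0.0506. In these fits the covariate moves with the groups and few or no genes of the whole table are called; the cause was not tested.

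*Ncoa3* turned to 0.12 with library totals alone and to 0.0222 without Control replicate 7, in a range of -0.0506 to 0.0222 over omissions. *Loxl2* ranged from 0.50 to 0.78 and passed the threshold without knockout-labelled replicate 12 (adjusted p = 0.0313). Marker lists past the threshold numbered 3 (without Control replicate 8) to 8 (without Control replicate 5 or knockout-labelled replicate 5), and the correlation of *Esr1* with *Acan* in Control ranged from -0.78 (without Control replicate 6, p = 0.0192, exact permutation) to -0.29. Equal replicate numbers did not pair the samples (correlations of -0.36 to 0.17 over 8 pairs); with the replicate block over 16 libraries 1 of the 10 genes and 23 genes of the lists were called, of 1786 in all, against 3280 for the same libraries without the block. No other call of the 10 genes changed with it. Depth limits *Esr2*, *Pgr* and *Cyp19a1*, where a few counts decide each value.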
